A study of Mus musculus with 2 samples.

Results

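J segment use and CDR3 length were described in the T cell receptors of donor T cells taken from mouse colon in a graft-versus-host disease model. The members were the distinct CDR3 nucleotide sequences on TRA and TRB contigs (assembled receptor transcripts) that the authors marked productive, in cells that also passed the RNA filter. There were 2038 of them, 1126 TRA and 912 TRB, from 8432 of the 9560 productive TRA and TRB contigs among 18289 contigs in all. The J segments were 41 of Traj and 11 of Trbj, and each distinct CDR3 was counted once whatever the size of its clone.

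All cells came from a single group. Balb/c recipients were lethally irradiated and given C57BL/6 bone marrow (5000000 cells) with splenocytes adjusted to 800000 alpha beta T cells. On day 21 the colons of 5 mice were pooled, and cells positive for H2-Kb (the donor class I molecule) and the TCR beta chain were sorted. The pool gave 1 RNA library and 1 TCR library from the same cDNA, and no label ties a cell to a mouse, so the pool is 1 sample: no difference below has a replicate or a test, and the 95% intervals cover counting error only. The sample titles name CD4 T cells, but the labelled sort has no CD4 gate, so cells were split by their own transcripts into a CD4 class (a Cd4 UMI and none of Cd8a or Cd8b1, 1861 cells) and a CD8 class (the converse, 2391 cells); 301 cells had both and 780 neither.

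The kept cells had a median of 4800 UMIs (2549 to 39138), and 5143 of the 5990 contig barcodes were also RNA barcodes. A productive contig had a median of 6 UMIs for TRA and 11 for TRB. A TRB chain was found in 60.6% of the CD4 class (58.3% to 62.8%) and in 73.9% of the CD8 class (72.0% to 75.6%), and a TRA chain in 74.1% and 73.7%. Of the 8 macrophage markers none was at 0 in either class; their summed level was 2.16 UMIs per 10000 in the CD4 class against 1.17 for CD8, and their part in the class differences below was not tested beyond leaving out the cells with 3 or more of them. Trdc, the delta chain constant gene, was at 0 in the CD8 class, and Zbtb16, the defining factor of NKT cells, was at 0 in the CD4 class. The other genes of these lists were not at 0: the gamma delta list had 595 UMIs in 15.3% of the CD8 class (517 of them from 1 gene) and 336 in 9.56% of the CD4 class, and the NKT list 265 UMIs in 8.74% of the CD8 class and 61 in 2.85% of the CD4 class. Their part in the results was not tested.

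A T cell receptor chain is made by joining a V segment to a J segment, with a D segment between them in the beta chain, while nucleases trim the ends and terminal transferase adds bases that no segment encodes. The join is the CDR3, the loop that lies over the peptide in the MHC groove, and it ends at the first residue of a motif in the J segment, in most segments phenylalanine, glycine, any residue and glycine. The Trbj segments lie in a pair of clusters, each behind its own D segment and before its own constant gene. In the alpha locus a cell can join again, each time with a V farther upstream and a J farther downstream than before, until a receptor is selected.

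The segments on which the results turn are printed from the GENCODE M21 annotation of GRCm38, the build of the authors' mm10, with the motif's 4 codons in capitals. The J part of a CDR3 is what stands before the capitals plus their first codon. The Trbj segments shown are the pair with the clearest class difference, the segment with the longest and that with the shortest mean CDR3, and Trbj1-6, whose second motif residue is alanine.
Trbj2-1 (chr6:41542754-41542803, plus strand): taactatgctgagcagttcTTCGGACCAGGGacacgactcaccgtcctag
Trbj2-3 (chr6:41543223-41543271, plus strand): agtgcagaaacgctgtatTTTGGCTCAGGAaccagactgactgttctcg
Trbj2-4 (chr6:41543362-41543410, plus strand): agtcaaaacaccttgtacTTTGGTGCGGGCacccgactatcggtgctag
Trbj2-7 (chr6:41543810-41543856, plus strand): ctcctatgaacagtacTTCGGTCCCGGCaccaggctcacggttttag
Trbj1-6 (chr6:41535554-41535606, plus strand): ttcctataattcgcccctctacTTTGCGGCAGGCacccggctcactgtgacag
The Traj segments shown include those with at least 20 CDR3s whose class ratio interval excluded 1 (Traj31, Traj40 and Traj13). Traj50 is shown for its pairing with Trav4d-4, and Traj32 has most germline bases among those printed. The other 2 hold no member for the reason given at the end (Traj49 and Traj44, the latter with a leucine as the first motif residue).
Traj50 (chr14:54167590-54167652, plus strand): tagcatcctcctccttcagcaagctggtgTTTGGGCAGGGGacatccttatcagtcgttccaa
Traj40 (chr14:54177921-54177981, plus strand): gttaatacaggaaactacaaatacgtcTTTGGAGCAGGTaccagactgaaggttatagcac
Traj31 (chr14:54187895-54187951, plus strand): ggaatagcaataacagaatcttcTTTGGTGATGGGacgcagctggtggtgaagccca
Traj32 (chr14:54186101-54186166, plus strand): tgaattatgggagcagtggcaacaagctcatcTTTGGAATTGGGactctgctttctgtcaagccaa
Traj13 (chr14:54205741-54205797, plus strand): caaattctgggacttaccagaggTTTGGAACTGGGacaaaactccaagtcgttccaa
Traj49 (chr14:54168686-54168747, plus strand): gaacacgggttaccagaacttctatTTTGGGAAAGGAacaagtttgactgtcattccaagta
Traj44 (chr14:54173690-54173750, plus strand): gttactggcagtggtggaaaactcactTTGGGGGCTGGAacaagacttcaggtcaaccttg

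Among the 11 Trbj segments, Trbj2-4 took a higher share of the CD4 class's CDR3s and Trbj2-1 a higher share of the CD8 class's. Trbj2-4 was in 46 of 366 CDR3s of the CD4 class (12.6%, 9.35% to 16.4%) and in 28 of 423 of the CD8 class (6.62%, 4.44% to 9.43%), a ratio of 1.90 (1.16 to 3.15). Without the cells of an alpha pair described below, Trav4d-4 with Traj50, the Trbj2-4 ratio was 1.56 and its interval included 1. Trbj2-1 was in 6.28% of the CD4 class (4.02% to 9.28%) and 13.2% of the CD8 class (10.2% to 16.8%), a ratio of 0.475 (0.279 to 0.784). These were the Trbj segments whose ratio interval excluded 1 most clearly; the third, Trbj1-3, was in 5.46% and 2.36%, a ratio of 2.31 (1.03 to 5.53). The Trbj1-3 interval included 1 under 4 alternatives: without cells of 2 or more TRB chains (0.809 to 4.57), with 2 or more UMIs of the lineage gene (0.594 to 4.26), with counts thinned to 2000 UMIs (0.702 to 4.16) and with each CDR3 given to the class of most of its cells (0.929 to 5.05).

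A ratio of 1.5 or more in either direction, for segments with at least 20 CDR3s over both classes, is called past the fold. Of the 11 Trbj segments 3 were past it in favour of the CD4 class (27.3%) and 2 in favour of the CD8 class (18.2%). The others past it were Trbj1-5 (3.83% and 1.89%, ratio 2.02, 0.792 to 5.56) and Trbj1-2 (4.37% and 7.57%, ratio 0.578, 0.296 to 1.08), and both intervals include 1. Trbv segments passed the same fold in 23.5% of 17 in each direction, so the count of Trbj segments does not stand apart from that of the V segments beside them.

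The most used segment of both classes was Trbj2-7, with 19.7% (15.7% to 24.1%) and 24.1% (20.1% to 28.5%). Trbj2-5 followed in the CD4 class with 13.7%, and held 11.6% of the CD8 class, below Trbj2-1 and Trbj1-1. Trbj1-1 held 9.84% and 12.3%, Trbj2-3 9.02% and 9.22%, Trbj1-4 7.65% and 5.20%, and Trbj2-2 7.65% and 5.91%. For these 6 segments the intervals of the classes overlap and the ratios lie between 0.800 and 1.47.

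**Figure D1:**
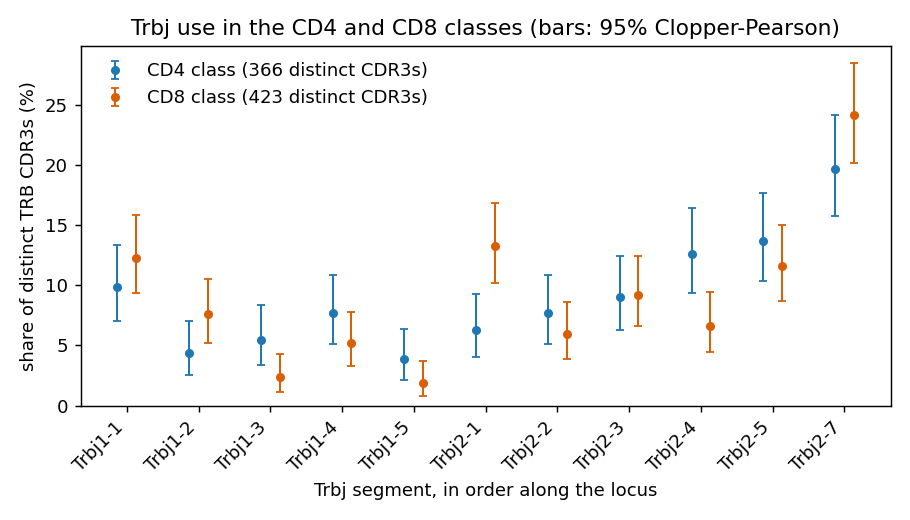
Share of distinct TRB CDR3s (%) with each of the 11 Trbj segments in the CD4 class (366 CDR3s) and the CD8 class (423), with 95% Clopper-Pearson bars. Trbj2-1 and Trbj2-4 are the segments whose points lie farthest apart relative to their bars, in opposite directions, and Trbj2-7 is highest in both classes.

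The balance between the clusters was alike in the classes. Trbj2 segments made up 70.1% of all TRB CDR3s (67.0% to 73.0%), 68.9% in the CD4 class (63.8% to 73.6%) and 70.7% in the CD8 class (66.1% to 75.0%). Segment calls kept to the order of the locus: Trbd2, which lies after the Trbj1 cluster, was the D called in 10 of 196 CDR3s with a Trbj1 segment (5.10%, 2.47% to 9.18%) and in 325 of 535 with a Trbj2 segment (60.7%, 56.5% to 64.9%).

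The RNA library, made from the same cDNA, gave another reading of the join. The contig table names Trbc2 as the constant segment of all 3819 productive TRB contigs in these cells. In the RNA counts, Trbc1 UMIs were 48.5% of the Trbc1 and Trbc2 UMIs in cells with a Trbj1 chain (46.5% to 50.4%, 1214 cells) and 17.1% in cells with a Trbj2 chain (15.8% to 18.5%, 2130 cells). Trbc1 was higher with a Trbj1 chain in each class, with 49.9% against 19.6% (17.15% to 22.3%) for CD4 cells and 47.6% against 13.2% (11.6% to 14.9%) for CD8 cells. These intervals count UMIs, which are not independent within a cell or clone, so the classes are not compared by them. Among CD4 cells with a Trbj2 chain, 64 had more Trbc1 and 345 more Trbc2. Among such CD8 cells the numbers were 70 and 565. Trbc1 and Trbc2 are near-identical copies, so reads can be split between them. The J genes themselves cannot be read from the RNA table, where 60 Traj genes held 1 UMI and 14 Trbj genes held 0.

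In the alpha chain the classes differed by position along the locus. The J segments were put in blocks by genome position, and the 5' block (Traj58 to Traj38, the 14 segments with members nearest the V segments) held 157 of 509 CDR3s of the CD4 class (30.8%, 26.9% to 35.1%) and 80 of 470 of the CD8 class (17.0%, 13.7% to 20.7%), a ratio of 1.81. Traj49 and Traj44 also lie in this stretch but hold no member, so they are not counted in it. The middle block (Traj37 to Traj21) held 45.4% and 51.7% (41.0% to 49.8% and 47.1% to 56.3%). The 3' block (Traj18 to Traj2) held 23.8% and 31.3% (20.1% to 27.7% and 27.1% to 35.7%). In both of these blocks the intervals of the classes overlap. The CD4 class thus had its higher share at the V-near end. The shares of the blocks sum to the whole, so the CD8 class's higher share over the rest of the locus is not a separate result. In the 5' block 10 of 14 segments had a higher share in the CD4 class, in the middle block 3 of 14, and in the 3' block 4 of 13.

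The difference at the 5' block was present in each subset looked at. Among CDR3s found in 1 cell it was 28.3% against 14.1%, and among those in 2 or more cells 34.9% against 20.7%. With the V segments split the same way, it was 31.7% against 15.4% with distal V segments. With middle ones it was 26.6% (20.2% to 33.8%) against 15.3% (10.7% to 20.9%). With proximal ones it was 34.6% (26.6% to 43.3%) against 23.9% (15.6% to 33.9%). The intervals overlap for the middle and the proximal V segments. With CDR3s of both classes left out it was 30.5% against 15.1%.

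**Figure D2:**
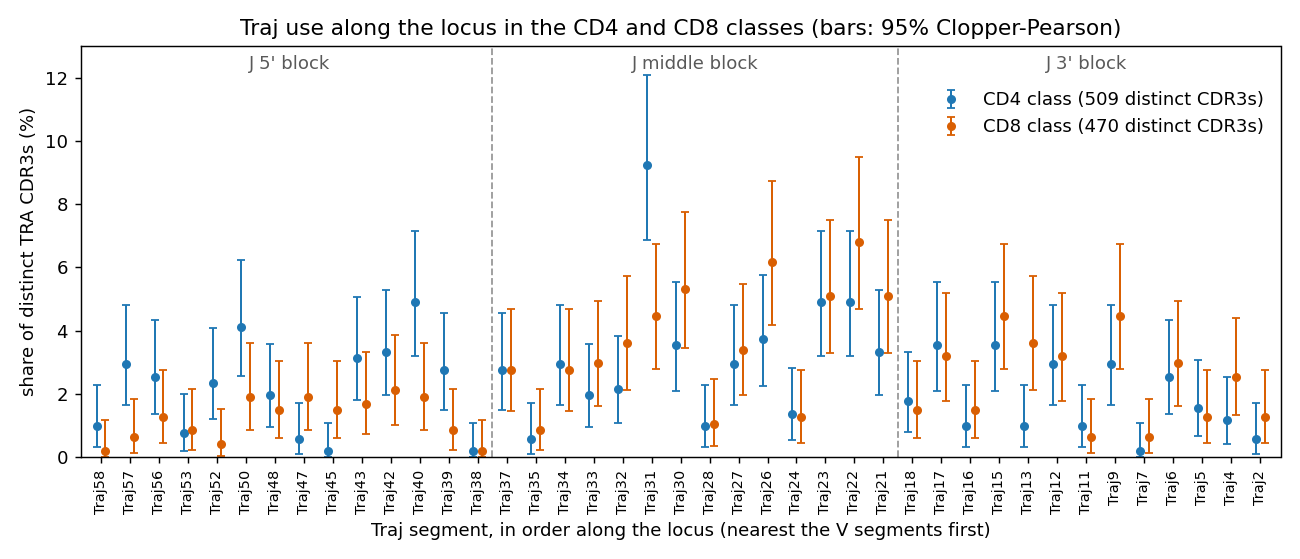
Share of distinct TRA CDR3s (%) with each of the 41 Traj segments, in order along the locus, in the CD4 class (509 CDR3s) and the CD8 class (470), with 95% Clopper-Pearson bars and dashed lines between the blocks. The CD4 points lie above the CD8 points for 10 of the 14 segments of the 5' block, and Traj31 in the middle block is the highest point of the CD4 class.

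Of single Traj segments, Traj31 was the most used in the CD4 class, in 47 CDR3s (9.23%, 6.86% to 12.1%), against 21 in the CD8 class (4.47%, 2.79% to 6.75%), a ratio of 2.07 (1.21 to 3.64). Traj40 was in 4.91% and 1.91%, a ratio of 2.56 (1.16 to 6.24). Traj13 lay the other way, in 0.982% and 3.62%, a ratio of 0.272 (0.0783 to 0.767). These are the 3 of 21 Traj segments with at least 20 CDR3s whose interval excluded 1. With fewer CDR3s, the intervals of Traj57 (4.62, 1.31 to 24.9), Traj52 (5.54, 1.23 to 51.0) and Traj39 (3.23, 1.01 to 13.5) also did. With 2 or more UMIs of the lineage gene the intervals of Traj40 (0.963 to 5.94) and Traj13 (0.0792 to 1.01) include 1, as does that of Traj40 with thinned counts (0.999 to 6.16).

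Past the fold in favour of the CD4 class were 5 of 21 (23.8%): Traj31 and 4 segments of the 5' block, namely Traj40, Traj42 (1.57), Traj43 (1.85) and Traj50 (4.13% and 1.91%, ratio 2.15, 0.946 to 5.34). Past it in favour of the CD8 class were 7 (33.3%): Traj13 and Traj9 (0.660) of the 3' block, and Traj21 (0.654), Traj26 (0.605), Traj30 (0.665), Traj32 (0.597) and Traj33 (0.660) of the middle block. Counted by cells in place of CDR3s, Traj26 (2.41), Traj30 (1.40) and Traj33 (2.70) lay on the CD4 side. The 4 segments of the 5' block with at least 20 CDR3s were all past the fold, and all in favour of the CD4 class. The Trav segments passed the fold in 31.2% of 16 in favour of the CD4 class and in 25% in favour of the CD8 class, with ratios from 0.134 to 6.16, a wider range than the Traj segments' 0.272 to 2.56. The most used Traj segments after Traj31 were Traj22, Traj23 and Traj40 in the CD4 class, each with 4.91%, and Traj22 (6.81%), Traj26 (6.17%) and Traj30 (5.32%) in the CD8 class, followed there by Traj21 and Traj23 with 5.11% each.

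Proximal V segments (those nearest the J segments, Trav4-2 to Trav21-dv12) were joined to the 5' J block in 90 CDR3s where 67.2 are given by the product of the shares, a ratio of 1.34 (1.08 to 1.65), and to the 3' block in 54 against 76.7, a ratio of 0.704 (0.529 to 0.919). Distal V segments (Trav1 to Trav5d-4) were near 1, with 0.967 and 1.01, and the middle ones had 0.810 (0.645 to 1.004) and 1.18 (0.992 to 1.39), so the values do not run in order over the 3 V blocks. Most Trav segments of C57BL/6 mice have near-identical copies (named with d or n) elsewhere in the locus, so a read can be given to the wrong position.

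Among the 11 Trav segments in these data with no such copy the split was wider. Proximal V segments had a 5' block J in 18 of 19 CDR3s (94.7%, 74.0% to 99.9%), and distal ones in 2 of 61 (3.28%, 0.400% to 11.3%). Over these 80 CDR3s the V and J order had a Spearman correlation of -0.552 and a Pearson correlation of -0.844, and over all 1125 with a V position -0.127 and -0.161. These are descriptions over CDR3s of 1 pool.

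**Figure D3:**
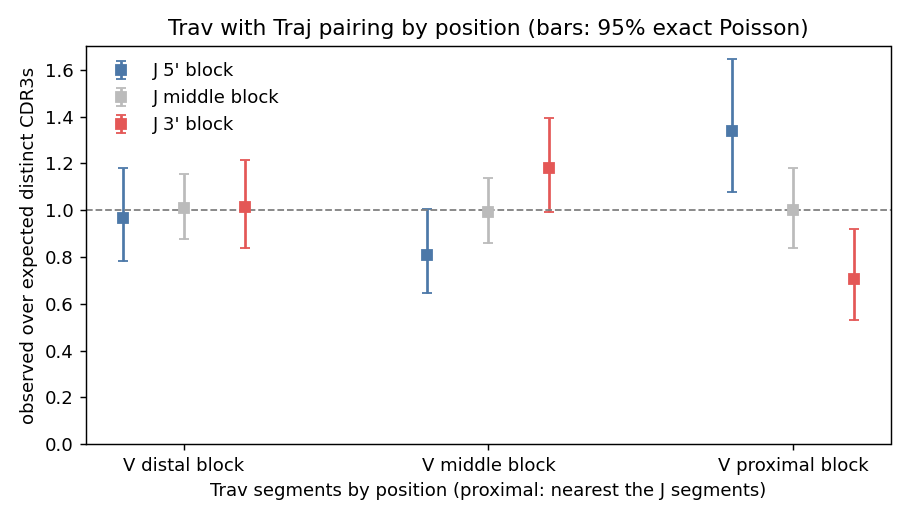
Observed over expected number of distinct TRA CDR3s for each combination of V position (x axis) and J position (colour), with 95% exact Poisson bars and a dashed line at 1. Among the proximal V segments the 5' J block is above 1 (1.34) and the 3' J block below it (0.704), and the other 7 bars reach 1.

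Cells that carried 2 TRA chains tended to have both J segments in the same part of the locus. Of 224 distinct chain pairs, from cells with at most 1 TRB chain, 54.0% (47.3% to 60.7%) had both J segments in the same block, against 36.8% from the block shares alone. The order of the 2 J segments along the locus had a Pearson correlation of 0.371 over these pairs, and the lengths of the 2 CDR3s one of -0.012. Between the TRA and the TRB length of a cell the correlation was -0.008 over 617 pairs.

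For V with J pairs of the beta chain, 190 of 209 possible pairs were seen, and 69 had at least 5 expected CDR3s. Of those 7 (10.1%) were past the fold upwards and 10 (14.5%) downwards. The interval lay above 1 for 2 of the 69 and below 1 for 1 of them. Whether this exceeds counting error was not tested. Trbv13-3 with Trbj2-4 was the highest, with 15 CDR3s against 5.89 expected, a ratio of 2.55 (1.43 to 4.20). Of these 15, 5 were in cells with Trav4d-4 and Traj50, an alpha pair described below. Trbv29 with Trbj1-1 followed, with 2.11 (1.05 to 3.78). Next by their interval were Trbv15 with Trbj2-7 (1.51), Trbv12-1 with Trbj2-1 (1.79) and Trbv16 with Trbj2-7 (1.43), all with intervals that include 1. At the low end Trbv12-1 with Trbj1-1 had 1 CDR3 against 6.70 expected, a ratio of 0.149 (0.00378 to 0.832). Trbv1 with Trbj2-7 (0.512), Trbv15 with Trbj2-5 (0.417), Trbv29 with Trbj2-7 (0.564) and Trbv3 with Trbj2-7 (0.803) came next and have intervals that include 1.

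No pair of a single Trav and Traj segment had 5 expected CDR3s, since 730 of 2911 possible pairs were seen, so alpha pairs were counted by V family, which also puts the copies together. Of 40 such pairs 6 (15%) were past the fold upwards and 9 (22.5%) downwards. The interval lay above 1 for 2 of the 40 and below 1 for 0, and this too was not tested against counting error. Trav7 with Traj37 had 14 CDR3s against 5.84, a ratio of 2.40 (1.31 to 4.02), and Trav14 with Traj31 had 12 against 6.11, a ratio of 1.96 (1.01 to 3.43). Trav6 with Traj9 (1.69), Trav6 with Traj40 (1.71) and Trav7 with Traj31 (1.39) followed. The lowest by their interval were Trav12 with Traj23 (0.354), Trav13 with Traj31 (0.448), Trav6 with Traj37 (0.521), Trav16 with Traj31 (0.376) and Trav6 with Traj50 (0.386), none with an interval that excludes 1.

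The pairs of the invariant T cells were rare or not found. Trav11 with Traj18, the alpha chain of invariant NKT cells, was in 0 of 1126 TRA CDR3s, which allows a share of up to 0.266%. Trav1 with Traj33, the segments of the MAIT cell alpha chain, was in 1 CDR3 of 13 residues, held by 3 cells of the CD8 class. Whether these are MAIT cells was not tested, since the pair was found by its segments alone.

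The Trav and Traj pair with most distinct CDR3s was Trav4d-4 with Traj50, which was singled out after its values were seen. It had 15 distinct nucleotide CDR3s in 210 cells, and they encode 8 amino acid CDR3s, of which 1 is encoded in 5 ways. Of the 15, 14 were in cells of the CD4 class and 4 in cells of the CD8 class, with 135 and 11 cells; 14 of the 15 are 14 residues long. The shares of the segments give 1.96 expected, a ratio of 7.66 (4.29 to 12.6). But 12 of the 15 differ by 1 base from a larger CDR3 of the same segments, and if such CDR3s are merged the ratio is 3.05 (0.628 to 8.91); 5 of the 13 with a TRB chain shared a TRB CDR3 with another of them.

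These CDR3s hold little that the segments do not encode, 1.47 ± 0.834 bases (SD, over 15 CDR3s) that match neither segment, against 6.86 ± 3.23 over the 14 CDR3s of Traj50 with other V segments. The beta chains beside them leaned to Trbj2-4. In the cells with this alpha pair, 16 of 44 distinct TRB CDR3s had Trbj2-4 (36.4%, 22.4% to 52.2%), against 67 of 722 in the other cells with a TRA chain (9.28%, 7.26% to 11.6%). In cells with 1 TRB chain the shares were 16 of 30 (53.3%, 34.3% to 71.7%) and 9.18% of 632. The 16 come with 7 different Trbv segments, 5 of them with Trbv13-3, and 15 of the 16 are 16 residues long (93.8%, 69.8% to 99.8%), against 10 of the other 67 (14.9%, 7.40% to 25.7%). Without the cells of this alpha pair the class ratio of Trbj2-4 was 1.56 (0.926 to 2.65) and that of Traj50 1.33 (0.364 to 5.33), and the ratio of the 5' J block was 1.74.

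The CDR3 lengths of the classes differed little. TRB CDR3s, counted from the V segment's cysteine to the first motif residue, were 13.88 ± 1.40 residues (SD, 366 CDR3s) in the CD4 class, against 13.70 ± 1.495 (423) in the CD8 class, with a median of 14 in both. The difference of 0.185 residues was 0.106 when both classes were given the same J use and 0.256 at the same V family use. Lengths of 12 or less were 15.6% (12.01% to 19.7%) and 21.0% (17.3% to 25.2%), and lengths of 16 or more 13.4% and 9.93%, with overlapping intervals. TRA CDR3s were 13.53 ± 1.28 (509) and 13.47 ± 1.46 (470), a difference of 0.056, or -0.008 at the same J use and 0.215 at the same V family use. Those of 12 or less were 19.1% (15.7% to 22.7%) and 24.7% (20.8% to 28.8%).

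**Figure D4:**
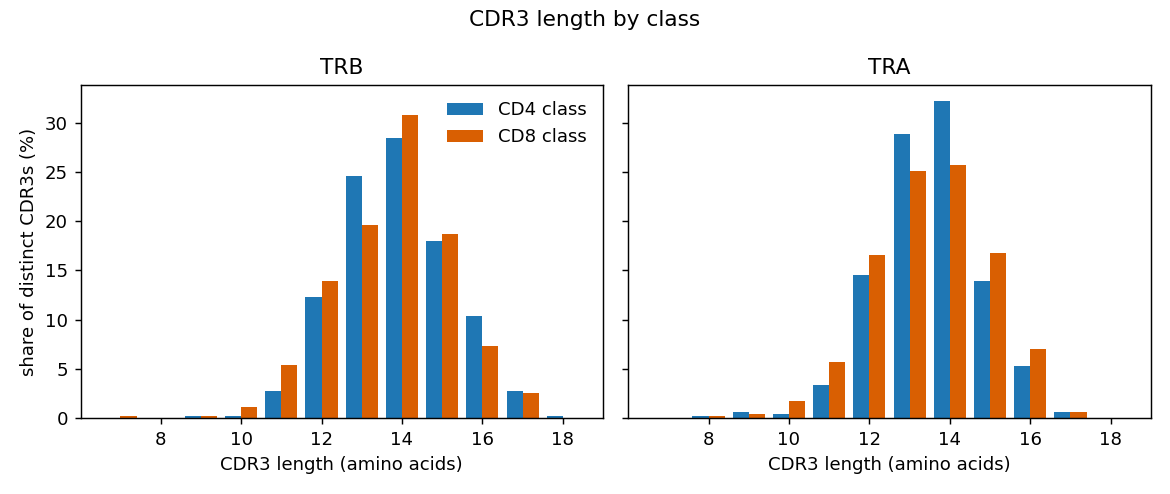
Share of distinct CDR3s (%) of each length in amino acids, for TRB (left) and TRA (right), in the CD4 and CD8 classes. Both classes peak at 14 residues in both chains, and the CD8 bars are higher at 10 to 12 residues.

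Within the classes, mean beta chain lengths differed in opposite directions between small and large clones. A clone is here all kept cells with the same CDR3. In the CD4 class CDR3s of 2 or more cells were 14.06 ± 1.46 residues (145) and those of 1 cell 13.76 ± 1.36 (221), 0.297 longer. In the CD8 class they were 13.60 ± 1.61 (187) and 13.78 ± 1.39 (236), a difference of -0.176, and the share of 12 or less was 26.2% (20.1% to 33.1%) against 16.9% (12.4% to 22.4%). Without the cells with Trav4d-4 and Traj50 the CD4 difference was 0.161, and the CD8 difference was -0.073 without cells of 2 or more TRB chains and -0.078 with thinned counts. These differences are small beside the SDs, and the difference between the classes has no replicate to be tested over. In TRA the differences were 0.138 and -0.007.

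Length followed the germline J segment, more closely in TRA than in TRB. Mean TRB lengths ran from 13.08 ± 1.43 for Trbj2-7 (198 CDR3s), whose germline gives 19 bases to the CDR3, to 14.47 ± 1.23 for Trbj2-3 (81), which gives 21, and Trbj2-4 was close to the latter with 14.43 ± 1.45. The Trbj segments with 23 bases were shorter than these, Trbj1-4 with 13.98 ± 1.48 and Trbj2-2 with 14.15 ± 1.27. Over the 11 Trbj segments the germline bases and the mean length had a Pearson correlation of 0.653. In TRA the range was wider, from 12.2 ± 1.12 for Traj33 (25 CDR3s, 26 bases) to 14.9 ± 1.17 for Traj18 (20, 35 bases), with a correlation of 0.881 over the 26 segments with at least 20 CDR3s. Traj31, the leading segment of the CD4 class, is among the short ones, with 12.31 ± 1.16. Segments with more germline bases in TRA also lost more of them, from 1.57 to 5.38 bases on average (Pearson 0.632), while in TRB the loss, 1.31 to 3.91 bases, did not follow the germline (-0.150).

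**Figure D5:**
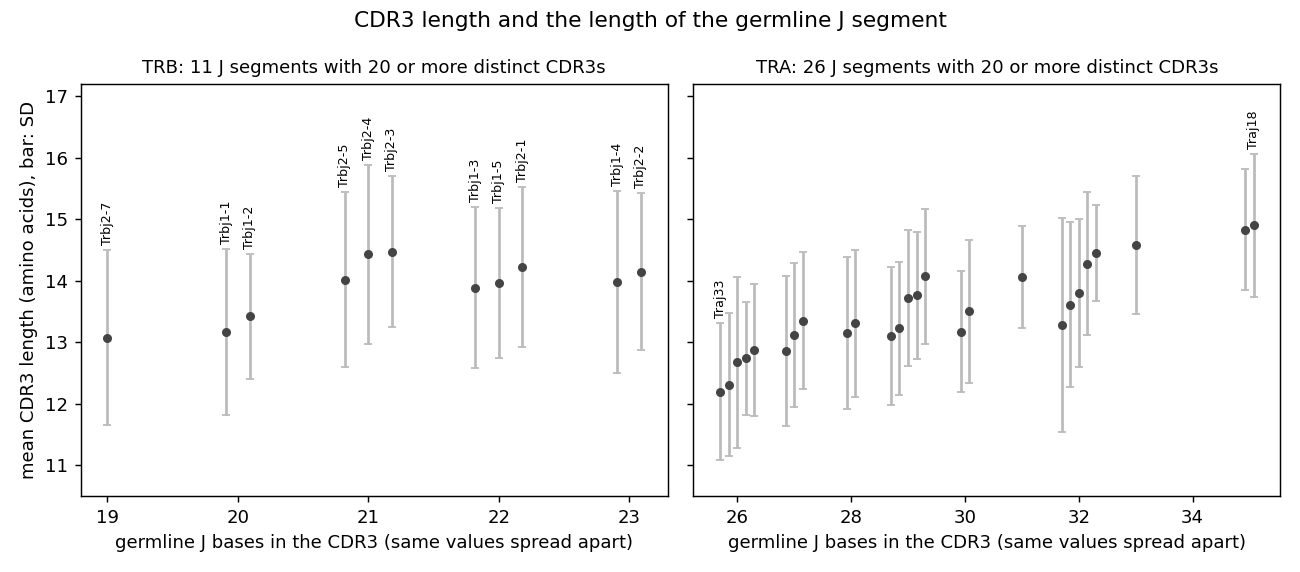
Mean CDR3 length in amino acids with its SD (y axis) against the germline J bases in the CDR3 (x axis), for the 11 Trbj segments and the 26 Traj segments with at least 20 distinct CDR3s. Trbj2-7 (13.08) is the shortest of the Trbj segments, and the Traj means climb from 12.2 for Traj33 to 14.9 for Traj18.

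The bases that match neither V nor J germline were 10.3 ± 3.94 per TRB CDR3 (912, D bases included) and 3.12 ± 2.72 per TRA CDR3 (1125). None were left in 13.5% of TRA CDR3s (11.6% to 15.6%) and in 0.658% of TRB CDR3s (0.242% to 1.43%). The classes were close, at 10.4 and 10.3 bases in TRB and at 3.14 and 3.09 in TRA. The mean net charge of the TRB CDR3 was -0.555 ± 0.904 in the CD4 class against -0.735 ± 0.919 in the CD8 class, and that of the TRA CDR3 0.736 ± 0.812 and 0.564 ± 0.868, counting lysine and arginine against aspartate and glutamate. Of 1083 amino acid TRA CDR3s 39 were encoded by 2 or more nucleotide CDR3s. Their 82 nucleotide CDR3s had 1.71 ± 2.45 bases that match neither segment, against 3.23 ± 2.71 in the rest, and 11 of the 82 had Traj50. Of all 1126 TRA CDR3s 38 lay 1 base from a larger one, and 12 of the 15 with Trav4d-4 and Traj50 did. How many of the 39 hold such variants of 1 chain was not tested. In TRB 6 of 906 amino acid CDR3s were encoded more than once.

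By clone size, Trbj2-3 was, of the segments with at least 20 CDR3s in a class, the J segment whose interval excluded 1. Of the Trbj segments tested this was 1 of 9 in the CD4 class and 0 of 9 in the CD8 class. Of the Traj segments it was 0 of 5 and 0 of 8. Whether 1 such interval among these ratios exceeds counting error was not tested. With fewer CDR3s, the intervals of Traj11, Traj53 and Traj5 in the CD4 class and of Traj13 in the CD8 class also excluded 1. In the CD4 class Trbj2-3 was in 20 of 145 CDR3s of 2 or more cells (13.8%, 8.63% to 20.5%) and in 13 of 221 of 1 cell (5.88%, 3.17% to 9.85%), a ratio of 2.34 (1.11 to 5.13), and in the CD8 class in 11.8% and 7.20%, a ratio of 1.63 (0.828 to 3.28). Trbj2-4 (1.52, 0.817 to 2.84) was the other Trbj segment past the fold upwards in the CD4 class, 2 of 9 tested (22.2%), with 3 downwards (33.3%): Trbj1-3, Trbj2-1 and Trbj2-5. In the CD8 class 1 of 9 was past it in each direction (11.1%), Trbj2-5 downwards with 0.612. Trbj2-5 thus lay on the side of the single cells in both classes, but both intervals include 1 (0.331 to 1.23 for CD4 and 0.314 to 1.14 for CD8). For Traj segments 1 of 5 in each direction was past the fold in the CD4 class (20%), Traj50 upwards with 2.55 (0.981 to 7.10) and Traj22 downwards, and in the CD8 class 0 of 8 upwards (0%) and 1 downwards (12.5%), Traj15.

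The largest TRB CDR3, 16 residues long, joins Trbv13-1 to Trbj1-3 and was in 327 cells, 302 of them of the CD8 class, though Trbj1-3 was in 2.36% of that class's distinct CDR3s. The largest TRA CDR3 joins Trav7-5 to Traj45, 14 residues, in 328 cells, 303 of them of the CD8 class. The largest of the CD4 class were Trbv1 with Trbj1-1 (73 cells, 50 of the class) and Trav4d-4 with Traj50 (105 cells, 65 of the class). Counted by cells in place of CDR3s, the Trbj1-3 ratio was 0.104, so its direction holds for distinct CDR3s only.

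Both classes shared 26 TRB and 46 TRA CDR3s. The shared TRA CDR3s were 13.07 ± 1.06 residues against 13.54 ± 1.39 for the 887 of 1 class, and the shared TRB CDR3s 13.85 ± 1.43 against 13.78 ± 1.46 (737). They came mostly from large clones, with a median of 15.5 cells in TRA and 18.5 in TRB, and in 29 of the 46 and 14 of the 26 the rarer class had 1 cell.

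Some J segments were present in the contigs of these cells but held no member, because no contig with them was marked productive. Traj49 was on 594 contigs, of which 592 have a CDR3 and none is marked as full length. Traj44 was on 97, of which 86 are full length and none has a CDR3, and Trbj1-6 on 110, of which 92 are full length and none has a CDR3; these are the printed segments whose motifs differ from the usual. Traj33, whose motif begins with tryptophan, did hold members (25). The shares above are therefore shares among the other segments. Counting the 46 in-frame CDR3s of Traj49 would make it 3.92% of the TRA CDR3s (2.89% to 5.20%), 3.42% in the CD4 class against 3.69% for CD8 (ratio 0.926, 0.454 to 1.89). Traj49 and Traj44 both lie within the 5' block. Traj49 would add 18 CDR3s to that block in each class, which lowers the block's class ratio.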

How the data were processed

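The authors ran Cell Ranger on mm10, per the submitters' processing notes. Its version and the TCR reference are not given in the sources used here. Unnormalized UMI counts of each barcode and gene were deposited by the authors for RNA, and for TCR a list of contigs with their read counts, UMI counts, segment calls, CDR3 and productive status.

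Kept barcodes had 500 or more detected genes and no more than 10% mitochondrial UMIs (5333 of 5348). Doublets were not called; 232 kept cells had 2 or more TRB chains. Each distinct CDR3 counts once per chain and class, with the V and J of its contig with most UMIs. Shares carry Clopper-Pearson intervals, ratios of shares exact conditional binomial intervals, and observed over expected numbers exact Poisson intervals of the observed number, all at 95%. A count of 0 was set to 3 CDR3s for the fold rule. Germline V and J bases were matched from both ends of each CDR3 to GENCODE M21 transcripts, which held all 52 J and 89 of 90 V segments. Tools were Python 3.11.15, numpy 2.4.6, pandas 2.3.3, scipy 1.17.1 and matplotlib 3.10.9, tested on simulated data.

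Named were all Trbj segments, the 5 commonest Traj segments of each class, J segments past the fold, the 5 highest and 5 lowest pairs per chain by interval, and both invariant pairs. Members, lists and rules were chosen with earlier results of these data known.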

Additional observations from a re-analysis of the deposited data

Results flagged for a closer look

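Contigs outside the productive flag were set against the 3 counts that a count of 0 allows; there are no control samples. Traj49 was on 594 contigs of kept cells. Its commonest CDR3, with Trav13d-2, was in 352 cells, 321 of them of the CD8 class, and 308 of the 327 with a productive TRB chain (94.2%) shared the same TRB CDR3. Traj44 was on 97 contigs and Trbj1-6 on 110.

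A single short contig that joins Trbv19 to Trbj2-1, with an 8-residue CDR3 and a median of 291 bases, was in 1177 kept cells and never full length. Unlike the Traj49 contig it was not tied to 1 clone: the 803 of these cells with a productive TRB chain held 203 distinct TRB CDR3s, and the commonest was in 21.5% of them. It was in 307 cells of the CD4 class and 676 of the CD8 class. It is not counted among the Trbj2-1 members.

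Contigs that the authors gave to no single chain numbered 2475 in kept cells, 1900 of them with a Trbj and 262 with a Traj segment, and 12 were marked productive.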

How the results depend on the processing

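Counting each cell in place of each distinct CDR3, so that large clones weigh more, changed most values. Segments past the fold became 9 in TRB J, 26 in TRA J and 50 in V use, from 5, 12 and 17. Those past it by clone size became 49, and pairs 118 in TRB and 235 in TRA by family, from 10, 17 and 15. The Trbj2 share ratio became 1.22, the ratio of the 5' Traj block 1.28, the TRB length difference -0.214 and that by clone size in the CD8 class 0.378. The Trbj1-3 ratio became 0.104, which reverses it; its largest clone is 327 of 394 cells. Traj26 (0.605 to 2.41), Traj33 (0.660 to 2.70), Traj30 (0.665 to 1.40), Trbj1-1 (0.800 to 2.55) and Trbj2-3 (0.978 to 1.90) also turned to the CD4 side, and Trbj2-5 (1.18 to 0.834) to the CD8 side.

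A 2-fold rule left 3, 4 and 9 segments past the fold in TRB J, TRA J and V use, and a minimum of 10 CDR3s gave 19 in TRA J and 28 in V use. With 2 or more UMIs of the lineage gene 6 segments were past the fold by clone size, and with distinct amino acid CDR3s 9 alpha pairs. Leaving out cells with Trav4d-4 and Traj50, an alternative added after the data were seen, gave 7 Traj segments and 4 by clone size. Among the alternatives, asking for 1000 or more detected genes left the main results as they were. Dropping the barcode filter added back few cells, since 5333 of 5348 barcodes were kept. Agreement under these settings therefore says little. Of the 194 alternative values of the main results, these included, 175 stayed within 1.5 times the count or within the interval. The 5' block ratio lay between 1.65 and 2.02 in the other 13. Its direction held in all 14. Few CDR3s per segment limit all ratios. No paired analysis was possible because the pool is 1 sample.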

Other observations

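In the contigs with a CDR3 that were marked as not productive, Traj7 led the alpha chain with 31 of 425 distinct CDR3s (7.29%), while it was in 0.444% of the productive TRA CDR3s. Of its 67 contigs in kept cells 7 were productive (10.4%). Counted by contigs, Traj28 (24.1% of 112), Traj52 (35.8% of 106) and Traj23 (41.9% of 353) also had a low productive share. Traj35 had 96.9% and Traj13 95.4%, but 1 clone held 107 of 124 productive Traj35 cells and 96 of 125 for Traj13. By distinct CDR3s, the share among productive over that among not productive ones was 0.0609 for Traj7 (0.0185 to 0.158). It was 0.755 for Traj28, 2.26 for Traj52 and 0.834 for Traj23, with intervals that include 1. The low share thus held by distinct CDR3s for Traj7 but was not shown for these others. CDR3s marked not productive were 15.3 ± 4.32 residues in TRA, and 123 of the 425 hold a stop codon; in TRB they were 14.4 ± 2.34 over 125.

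Near-identical CDR3s were rare in TRB, where 1 of 912 lay 1 base from a larger CDR3 of the same segments and length. In TRA 38 of 1126 did (3.37%), and 9 of the 26 with TRB chains on both sides shared a TRB CDR3 with the larger one.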
